A study of Mus musculus with 59 samples.

Results

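Sox1, Sox3, Zic2, Zic5, Pax6, Nes, Map2 and Tubb3 are 8 mouse genes widely used as markers of neuroectoderm and its first neural derivatives. They were chosen by name, and not by their values here, from 39017 gene identifiers in RNA tables of mouse embryonic stem cells, of which 37607 had a symbol. Their spans on the mm10 genome overlap 74 of 546202 windows of 5 kb in chromatin immunoprecipitation (ChIP) tables of the same series. The genes are described over 35 RNA libraries and 24 ChIP libraries, 59 samples in all.

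Neuroectoderm arises when cells leaving pluripotency escape BMP signalling, and embryonic stem cells that lose LIF and serum factors readily take this path. Sox1 and Sox3 belong to the SOXB1 transcription factors, which with Sox2 keep neural progenitors undifferentiated, and Sox1 is a standard first marker of committed neuroectoderm. Zic2 and Zic5 are zinc finger transcription factors of the neural tube and its dorsal border, and Pax6 is a paired-box factor of eye, forebrain and spinal cord progenitors. Nes encodes nestin, an intermediate filament protein of neural progenitors, Map2 encodes a microtubule-associated protein of neurons and their dendrites, and Tubb3 encodes the neuronal class III beta-tubulin.

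The cells were of a 129xC57Bl6 hybrid line grown with LIF and serum on gelatin. In the first RNA set, cells labelled Rosa26:CRE, DGCR8 Flox/Flox or Drosha Flox/Flox (a label that names no Cre) received 0.5 μM 4-hydroxytamoxifen (4OHT) for 24, 48 or 96 h, against untreated cells of the same line and time. Each group had 2 libraries except Drosha 4OHT at 96 h, which had 1. Dgcr8 and Drosha together form the Microprocessor, which cuts microRNA hairpins out of primary transcripts. In the second RNA set, 4 Mettl3 knockout (KO) lines (1d1, 3xU, 1d2 and 2c4d) and 2 parental samples (parental 1 and 2) were taken after 1 h at 42 °C and at 37 °C, 12 libraries in all. Mettl3 is the catalytic subunit of the enzyme that writes N6-methyladenosine on nascent RNA. All cells of this second set, parental ones included, carried BirA, a bacterial biotin ligase, at Rosa26 and a FLAG/Avi tag on DGCR8. In the ChIP sets, DGCR8, Dicer, Drosha or METTL3 carried this tag in BirA cells and was pulled down with streptavidin after crosslinking with formaldehyde alone or with disuccinimidyl glutarate (DSG), and each precipitate was set against input chromatin of tagged cells or, for Dicer and Drosha, of parental BirA cells. The labels do not say whether the parental samples or the KO lines were derived independently, nor whether METTL3 samples H4 and H5 of the heat ChIP set are separate clones, so each p-value reflects the spread among these samples alone, and that spread may be technical.

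In units of 1e6 counted reads, RNA libraries held 7.1 to 13.6 and ChIP libraries 13.8 to 86.3. All 12 stem cell markers examined were counted in all 35 RNA libraries, with 4596 to 11999 reads of Pou5f1 each, whereas the 6 glial markers summed to 3.74 to 22.1 CPM (counts per 1e6 reads of the library, scaled by TMM). The 26 neuronal genes listed summed to 521 to 1418 CPM, but their levels were uneven. Map1b alone had 3167 to 9901 reads in floxed libraries and 1542 to 3698 in the heat set. Dcx had at most 5 reads, Neurog1 at most 6, Neurog2 at most 2 and Myt1 at most 3. Fewer cells of a neural type cannot be told apart from less neural RNA per cell in such bulk samples. Drosha RNA was 23.4 to 29.1 CPM with 4OHT in the Drosha line, against 82.4 to 126 CPM untreated. Mettl3 RNA was 20.5 to 40.8 CPM in KO lines, against 60.4 to 71.5 CPM in parental cells. Dgcr8 RNA was 223 to 290 CPM with 4OHT in the DGCR8 line, against 105 to 145 CPM untreated, and counts over the whole gene cannot show the loss of a floxed part. The share of mt-Rnr2, a mitochondrial ribosomal RNA, was 27.15% in replicate 1 of DGCR8 4OHT at 96 h and 21.29% in the Drosha 4OHT library at 96 h, against 9.549% to 15.45% in the other floxed libraries.

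The 8 genes were expressed at low but measurable levels. Per kb of the transcript width deposited beside the counts, Tubb3 had the highest median of the 8 in each kind of cell, and the order below it differed between them. In the DGCR8 line Tubb3 had a median of 15.7 CPM per kb over 12 libraries (10.3 to 26.5), followed by Sox1 with 5.79 (4.69 to 11.2), Nes with 5.34 (3.16 to 10.9), Zic5 with 5.07 (3.95 to 7.40) and Zic2 with 3.14 (2.36 to 6.78), 4 genes whose ranges overlapped. In the Drosha line Tubb3 had a median of 21.0 over 11 libraries (11.2 to 31.2) and Nes 18.3 (13.0 to 22.8), also overlapping, ahead of Zic2 with 6.56, Sox1 with 4.42 and Zic5 with 3.81. At 24 h Nes stood above Tubb3 there, with means of 18.1 against 11.4 CPM per kb with 4OHT and of 17.0 against 13.3 CPM per kb untreated. Map2 had medians of 1.02 and 1.26 CPM per kb in the DGCR8 and Drosha lines, Pax6 of 0.474 and 0.558, and Sox3 of 0.350 and 0.608. In Mettl3 KO lines Sox1 was lowest, with a median of 0.758 CPM per kb (0.340 to 1.17, 8 libraries), whereas in parental cells it had 2.87 (2.45 to 3.86, 4 libraries), above Sox3 with 1.03, Map2 with 1.02 and Pax6 with 0.744. Sox3 was counted 1 to 26 times per floxed library, so its fold changes there rest on few reads.

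Several of these genes moved together over the 35 libraries, and others ran opposite. Coefficients are Pearson correlations of log2 CPM, with 1 CPM added. Each gene's mean within its own floxed line, or within the heat set, was subtracted first. Level differences between the floxed lines and the heat set therefore do not enter. Zic2 and Zic5 lie 9725 bases apart on chromosome 14 and on opposite strands in mm10 (Zic5 at chr14:122459160-122465658, Zic2 at chr14:122475384-122480328). Their coefficient was 0.939. Each was the other's closest match among 13696 genes, followed by Utrn (0.858) and Klf7 (0.841) for Zic2 and by Klf7 (0.842) and Enpp3 (0.832) for Zic5. Sox1 was closest to Pdgfra (0.898), Oxsr1 (0.887) and Polr3b (0.871), Pax6 to Alg13 (0.859), Nrp2 (0.853) and Ina (0.849), and Nes to Brpf3 (0.844). Map2 was closest to Vcan (0.851), Tubb3 to Ubxn8 (0.872), and Sox3 only to Marcks (0.687). The libraries share cell lines, treatments and 2 sets, so the coefficients describe these samples.

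In the DGCR8 line, 5 of the 8 genes rose and none fell with 96 h of 4OHT: Sox1, Zic2, Zic5, Map2 and Tubb3. Over all 14973 genes tested, 13.5% were called in either direction and 8.25% were called higher at this time. The test throughout is the quasi-likelihood F test of edgeR on all genes with Benjamini-Hochberg adjustment, called at an adjusted p below 0.05. The median log2 fold change of the 8 genes was 0.72, against 0.02 over all genes.

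Sox1 had 41.7 and 54.2 CPM with 4OHT at 96 h, against 23.3 and 23.1 CPM untreated, a rise of 1.05 ± 0.15 in log2 fold change (± SE; adjusted p = 0.00204). Its 4OHT libraries had 33.8 and 30.3 CPM at 24 h, against 24.2 and 25.7 CPM untreated. They had 35.6 and 41.2 CPM at 48 h, against 22.7 and 24.4 CPM untreated. They stood above the untreated libraries at each of the 3 times, but how many of all genes separate in this way was not counted. At 48 h Sox1 was the only one of the 8 genes called (log2 0.72 ± 0.15, adjusted p = 0.0457, where 1.48% of all genes were called), and that call was lost when any of the 4 libraries was left out (adjusted p of 0.164 to 0.332), with another scaling (0.0504) and in a fit of the 4 libraries alone (0.0558). Sox3, its SOXB1 relative, had 2 and 1 reads with 4OHT at 96 h, or 0.252 and 0.0845 CPM, against 9 and 11 reads, or 0.875 and 1.03 CPM, untreated. The fold change did not pass the test (log2 -2.55 ± 1.06, adjusted p = 0.139).

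Zic2 had 14.4 and 19.5 CPM with 4OHT at 96 h, against 7.29 and 7.12 CPM untreated (log2 1.24 ± 0.19, adjusted p = 0.00295). Zic5 had 36.2 and 32.9 CPM with 4OHT, against 22.9 and 22.0 CPM untreated, and rose by 0.62 ± 0.12 on the log2 scale (adjusted p = 0.00926). Both factors were also higher with 4OHT at 24 and 48 h, without a call. At 24 h Zic5 had 27.8 and 27.9 CPM with 4OHT, against 20.9 and 19.3 CPM untreated. Pax6 had 8.31 and 8.70 CPM with 4OHT at 96 h, against 5.35 and 6.65 CPM untreated (log2 0.50, adjusted p = 0.107). At 48 h it had 7.62 and 8.72 CPM against 4.71 and 4.64 CPM (log2 0.81 ± 0.19, adjusted p = 0.0714), without a call at either time. Scaled by library totals alone, Pax6 at 96 h had 6.17 CPM in 4OHT replicate 1, below the 6.60 CPM of untreated replicate 2.

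Among the cytoskeletal genes, Map2 had 39.1 and 27.6 CPM with 4OHT at 96 h, against 15.6 and 14.2 CPM untreated, a rise of 1.16 ± 0.19 (adjusted p = 0.00338). Tubb3 had 38.5 and 48.6 CPM, against 26.1 and 26.0 CPM, a rise of 0.74 ± 0.13 (adjusted p = 0.00552). Nes, the progenitor filament, had 39.3 and 69.7 CPM, against 33.1 and 34.0 CPM, and was not called (log2 0.71, adjusted p = 0.142). Scaled by library totals alone, Nes had 29.2 CPM in 4OHT replicate 1, below the untreated libraries with 30.9 and 33.7 CPM.

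**Figure D1:**
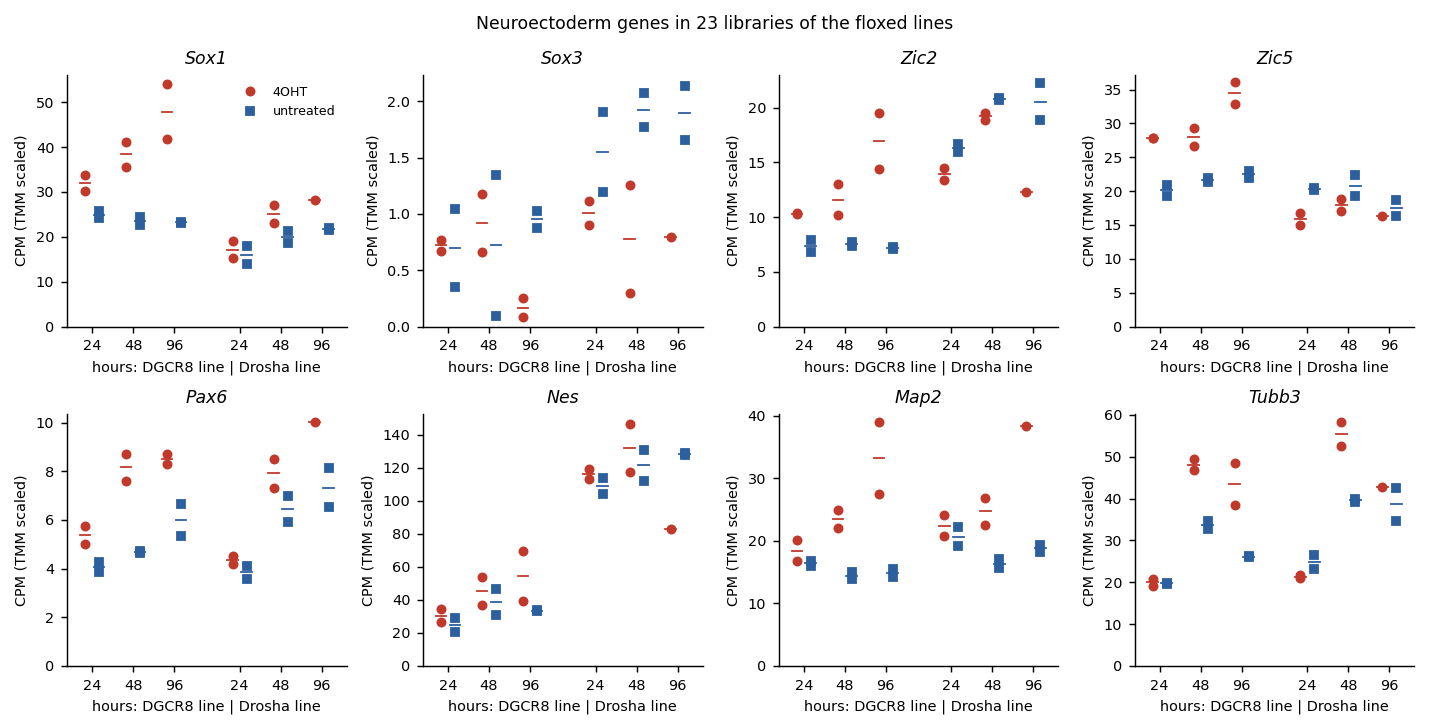
RNA level of each gene in TMM-scaled CPM on a linear axis from 0, by hours of treatment, for the DGCR8 line (left of each panel) and the Drosha line (right); red circles are 4OHT libraries, blue squares untreated ones, and bars the means of 2 libraries (1 for Drosha 4OHT at 96 h). Sox1, Zic2 and Zic5 of the DGCR8 line stand higher with 4OHT at each time, whereas Zic2 and Nes of the Drosha line stand lower at 96 h.

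The calls at 96 h rest on the spread shared by all 12 libraries of the line. In a fit of the 4 libraries of that time alone, none of the 5 genes passed, with adjusted p of 0.0923 for Sox1, 0.0942 for Zic2, 0.1 for Map2, 0.129 for Tubb3 and 0.144 for Zic5 at about the same fold changes. Without untreated replicate 1, Zic5 (0.0742) and Tubb3 (0.0625) were not called. Without untreated replicate 2, Zic5 (0.0978), Map2 (0.05, just over the threshold) and Tubb3 (0.0648) were not called. Without 4OHT replicate 1, the library with 27.15% mt-Rnr2, the 5 calls held and Nes was added (log2 1.05, adjusted p = 0.023). Without the filter on low counts, Nes (0.00435) and Sox3 (0.0245) were called as well.

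At 24 h none of the 8 genes was called in the DGCR8 line, by edgeR or by DESeq2, where edgeR called 0.107% of all genes. All 8 were higher with 4OHT, with a median log2 fold change of 0.34 against 0.00 over all genes. An unadjusted p below 0.05 was found for 3 of them and for 780 of the 14973 genes tested. All 8 were higher at 48 h too, with a median of 0.58. Sox3 was among them with an SE above its fold change, at 0.09 ± 0.83 at 24 h and 0.34 ± 0.79 at 48 h. Untreated cells at 96 h over 24 h had no member called either, by edgeR or DESeq2 (0.0601% of all genes by edgeR). In this comparison 2 members and 1515 of the 14973 genes had an unadjusted p below 0.05. The change between the effects at 96 and 24 h was called for none of the 8 genes by edgeR (0.18% of all genes) or DESeq2. By edgeR, 4 members and 1650 of the 14973 genes had an unadjusted p below 0.05. The nearest to a call were Map2 (0.98 ± 0.26, adjusted p = 0.191) and Tubb3 (0.72 ± 0.19, adjusted p = 0.191). Tubb3 was called here without 4OHT replicate 1 at 96 h (0.0441), and Map2 without 4OHT replicate 2 (0.0186).

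Other neural genes, from lists of 32 progenitor genes, 26 genes of neuronal differentiation and 15 inhibitors of the neural fate, were set beside them. In the DGCR8 line at 96 h, 13.5% of all genes were called and 8.25% were called higher. Of the 15 progenitor genes tested, 3 rose and none fell. Among the 3 were Sall3 (log2 1.38), a spalt-like zinc finger factor, and Msi1 (0.71), an RNA-binding protein of neural stem cells. Of 18 neuronal genes tested, 8 rose and none fell, with a median of 0.81. They included Neurod1 (1.51 ± 0.19, adjusted p = 0.0011), a proneural factor, Dpysl3 (1.45 ± 0.17), a collapsin response mediator protein, Stmn3 (1.53), a tubulin-binding stathmin, the microtubule-associated proteins Map1b (1.04) and Mapt (1.09), and Nefl (0.87), a neurofilament subunit. Of the 15 inhibitors, Id3 rose (1.2) and Smad7 fell by 0.64. Among markers of other lineages, 1 of 3 mesoderm genes tested rose (Meox1), none of 8 endoderm genes changed, and 1 of 6 epiblast genes fell (Dnmt3b), while the summed epiblast markers stood at 262 to 335 CPM with 4OHT against 375 to 378 CPM untreated. Their part in the rise of the 8 genes was not tested.

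The promoters of the genes that rose together at 96 h are shown for the letters around their start sites. RefSeq promoters on GRCm38.p6 (mm10), running 250 bases before to 50 bases after the annotated start, were at hand for 6 of the 8 genes, not including Sox3 and Zic2. Those of the 4 called genes with an entry are printed 5′ to 3′ on the gene's strand. Capitals mark exact matches, on either strand, to any of 5 motifs: for SOX factors the letters ACAATG, for POU factors the letters ATGCAAA, for an E-box the letters CAGCTG, for a start-site TATA element the letters TATAAA, and for a GC box the letters CCGCCC.
Sox1: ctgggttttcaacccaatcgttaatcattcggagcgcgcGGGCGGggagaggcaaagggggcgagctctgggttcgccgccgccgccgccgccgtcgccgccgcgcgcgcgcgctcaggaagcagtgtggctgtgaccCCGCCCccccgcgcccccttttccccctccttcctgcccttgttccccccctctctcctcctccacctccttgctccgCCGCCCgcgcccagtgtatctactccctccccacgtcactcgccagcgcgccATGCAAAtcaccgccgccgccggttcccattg
Zic5: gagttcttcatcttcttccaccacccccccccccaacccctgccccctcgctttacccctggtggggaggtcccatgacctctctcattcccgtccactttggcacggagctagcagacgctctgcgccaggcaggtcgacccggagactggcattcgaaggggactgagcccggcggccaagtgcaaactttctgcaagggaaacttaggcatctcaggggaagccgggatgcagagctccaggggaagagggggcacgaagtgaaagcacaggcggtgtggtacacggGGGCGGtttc
Map2: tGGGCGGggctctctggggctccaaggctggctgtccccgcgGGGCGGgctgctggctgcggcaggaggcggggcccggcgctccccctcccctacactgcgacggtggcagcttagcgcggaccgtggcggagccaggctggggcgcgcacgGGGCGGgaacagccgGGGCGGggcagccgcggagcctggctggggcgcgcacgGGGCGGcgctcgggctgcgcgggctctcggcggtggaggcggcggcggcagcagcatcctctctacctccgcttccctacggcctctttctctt
Tubb3: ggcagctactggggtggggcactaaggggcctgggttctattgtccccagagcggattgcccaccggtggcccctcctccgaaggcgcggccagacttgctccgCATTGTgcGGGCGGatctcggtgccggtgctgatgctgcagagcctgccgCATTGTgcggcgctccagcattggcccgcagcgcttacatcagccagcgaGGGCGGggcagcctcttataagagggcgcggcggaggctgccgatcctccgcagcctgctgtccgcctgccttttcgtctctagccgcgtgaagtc

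The Sox1 promoter (chr8:12395269-12395568, plus strand) held 3 GC boxes and, 19 bases after the start, 1 POU match, which 4.63% of the 32817 promoters in the table hold. The Tubb3 promoter (chr8:123411303-123411602, plus strand) held 2 SOX matches, 146 and 96 bases before the start, against a share of 12.6% of promoters with at least 1, and 2 GC boxes. Map2 (chr1:66175079-66175378, plus strand) held 5 GC boxes in a promoter of 77.7% GC, where the median of all promoters was 52.7%, and Zic5 (chr14:122465609-122465908, minus strand) held 1. At least 1 GC box was present in 35.6% of all promoters. The E-box and TATA letters, held by 16.3% and 13.6% of all promoters, were in none of the 4. Of the genes that were not called, Nes had 2 GC boxes and the promoters listed for Pax6 had no match. A match describes the letters of this window only.

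In the Drosha line the 8 genes split. After 96 h of 4OHT Map2 rose, Zic2 and Nes fell, and the other 5 did not pass the test, where 23.7% of the 16262 genes tested were called in either direction. The median log2 fold change of the 8 genes was 0.02, against -0.01 over all genes. There was 1 treated library at 96 h, the one with 21.29% mt-Rnr2, so its spread is taken from the other groups of the line, and it could not be left out.

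Map2 had 38.4 CPM with 4OHT at 96 h, against 18.2 and 19.4 CPM untreated (log2 1.03 ± 0.16, adjusted p = 0.000656). At 48 h it had 22.6 and 26.9 CPM, against 17.1 and 15.6 CPM (log2 0.59 ± 0.14, adjusted p = 0.0406). Tubb3 was called at 48 h alone, with 58.3 and 52.7 CPM against 39.8 and 39.2 CPM (log2 0.48 ± 0.12, adjusted p = 0.0489), and had 42.7 CPM with 4OHT at 96 h, against 42.6 and 34.5 CPM untreated. At 48 h 2.82% of all genes were called and 2.45% were called higher, and both calls were lost with DESeq2 (adjusted p = 0.08 for each), in a fit of the 4 libraries alone (0.13 for Map2 and 0.1 for Tubb3), and without untreated replicate 1 (0.23 and 0.31) or untreated replicate 2 (0.22 and 0.21). Without 4OHT replicate 1 Tubb3 was not called (0.21), and without 4OHT replicate 2 Map2 was not (0.11) while Sox3 was (log2 -2.63, 0.025).

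Zic2 had 12.3 CPM with 4OHT at 96 h, against 22.3 and 18.9 CPM untreated (log2 -0.74 ± 0.17, adjusted p = 0.00655). Nes had 83.2 CPM, against 129 and 128 CPM (log2 -0.63 ± 0.14, adjusted p = 0.00592). The treated library stood below both untreated ones for each gene, but how many of all genes separate in this way was not counted. Zic5 had 16.3 CPM with 4OHT, against 18.6 and 16.3 CPM untreated, and was not called (log2 -0.10 ± 0.17, adjusted p = 0.715). Sox1 had 28.3 CPM against 21.9 and 21.6 CPM (log2 0.38 ± 0.19, adjusted p = 0.158), and Pax6 had 10.0 CPM against 8.13 and 6.52 CPM (log2 0.45 ± 0.22, adjusted p = 0.165).

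The effect at 96 h minus that at 24 h was called for Map2 (0.91 ± 0.22, adjusted p = 0.0184) and Nes (-0.72 ± 0.18, adjusted p = 0.0219), where 11.6% of all genes were. Without untreated replicate 2 or 4OHT replicate 1 at 24 h Map2 was not called (0.081 and 0.087), and Nes was not called without any 1 of the 4 libraries of 24 h (0.052 to 0.081). At 24 h, none of the 8 genes was called by edgeR or DESeq2 (0.184% of all genes by edgeR). There 1 member and 1816 of the 16262 genes had an unadjusted p below 0.05. Untreated cells of the Drosha line also changed with time in culture: Pax6 rose by 0.93 ± 0.20 (adjusted p = 0.02) and Tubb3 by 0.65 ± 0.13 (adjusted p = 0.0124) in untreated cells at 96 h over untreated cells at 24 h, where 5.69% of all genes were called and 2.76% were called higher. Both of these calls were lost without untreated replicate 1 at 24 h (adjusted p = 0.14 for Pax6 and 0.063 for Tubb3), untreated replicate 2 at 24 h (0.13 and 0.17) or untreated replicate 1 at 96 h (0.089 and 0.062).

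At 96 h in the Drosha line 23.7% of all genes were called in either direction, so that called genes are common in any list. Of 19 progenitor genes 1 rose (Dll1, a Notch ligand, log2 0.80) and 4 fell. The latter were Sox2 (-0.68), Sox11 (-1.04), Msi1 (-0.87) and Otx2 (-0.68), an anterior homeobox factor. Of 18 neuronal genes, 4 rose, Dpysl3 (1.41), Neurod1 (1.29), Ptbp2 (0.75) and Map1b (0.50), and 2 fell, Elavl3 (-1.10) and Gap43 (-0.71). Of 15 inhibitors none rose and 4 fell: Bmp4 (-1.06), a ligand that blocks neural induction, its feedback inhibitor Smad7 (-0.62), the REST corepressor Rcor2 (-0.74), and Ptbp1 (-0.47), a splicing repressor of neuronal exons. The other lineages moved as well. Of 7 epiblast genes 4 fell, and their sum was 340 CPM with 4OHT against 589 to 627 CPM untreated. Of 8 endoderm genes 4 rose, and the sum of the 10 listed was 699 CPM with 4OHT against 452 to 453 CPM untreated, with Afp at 0 in a library of every floxed group. Their part in the changes of the 8 genes was not tested.

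**Figure D2:**
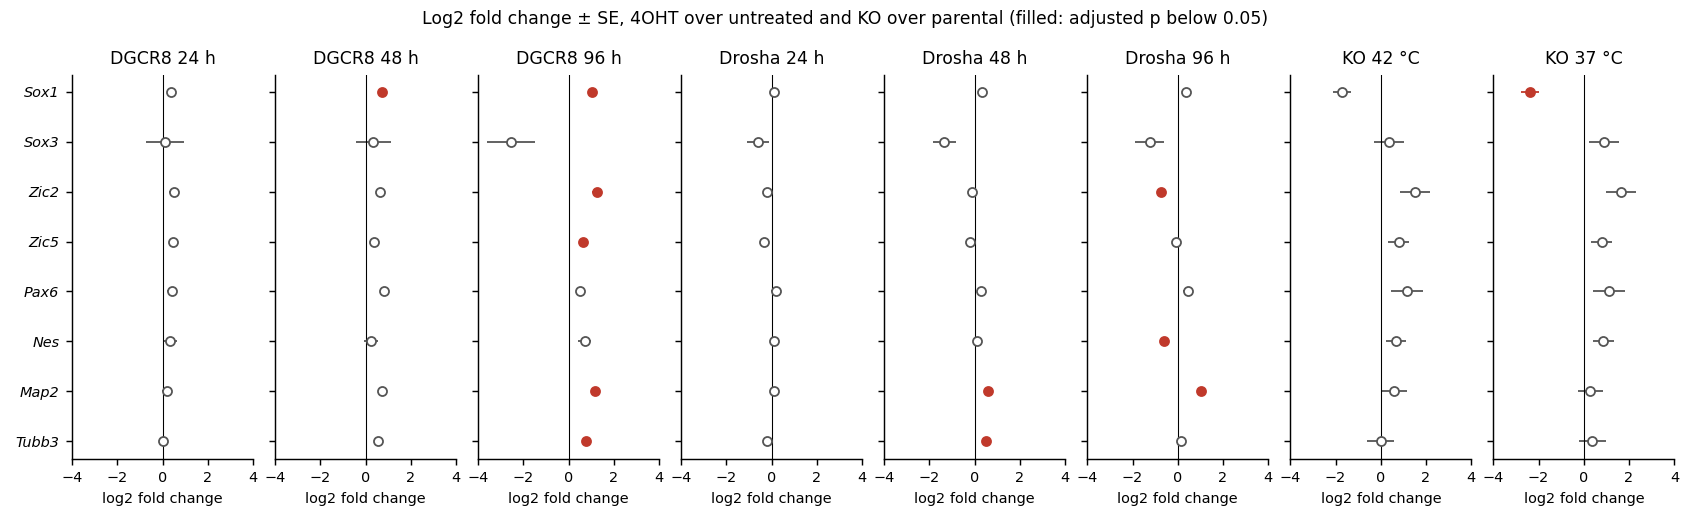
Fitted log2 fold change ± SE of each gene, 4OHT over untreated in the DGCR8 and Drosha lines by hours and Mettl3 KO over parental cells at 42 and 37 °C; filled red circles have an adjusted p below 0.05. At 96 h the DGCR8 line has 5 filled circles to the right of 0 and the Drosha line 1 to the right and 2 to the left.

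The lines were compared in a joint fit of all 23 libraries (16606 genes). Averaged over both lines at 96 h, 4OHT raised Map2 (1.09 ± 0.13, adjusted p = 7.51e-06), Sox1 (0.71 ± 0.12, adjusted p = 0.000323), Tubb3 (0.45 ± 0.10, adjusted p = 0.00313) and Pax6 (0.48 ± 0.14, adjusted p = 0.0156) and lowered Sox3 (-1.90 ± 0.65, adjusted p = 0.0377), where 28.2% of all genes were called. The first 4 were also the genes called at 48 h, all of them higher, with Map2 at 0.65 ± 0.12 and Tubb3 at 0.50 ± 0.09 (adjusted p = 0.00188 and 0.00184) against 8.18% of all genes called and 5.58% called higher. At 24 h none of the 8 genes was called on average over both lines by edgeR or DESeq2 (0.44% of all genes by edgeR). Unadjusted p lay below 0.05 for 0 members and for 1705 of the 16606 genes. The Pax6 call at 96 h was lost without the filter on low counts (0.075), with DESeq2 (0.053) and when untreated DGCR8 replicate 1 (0.063) or untreated Drosha replicate 2 (0.053) was left out. The Sox3 call was lost without DGCR8 untreated replicate 1 (0.061) or 2 (0.091), DGCR8 4OHT replicate 2 (0.11) or Drosha untreated replicate 1 (0.08). Zic5 (0.26 ± 0.10, adjusted p = 0.0573) was called with RLE factors (0.044) and without DGCR8 4OHT replicate 2 (0.035) or Drosha untreated replicate 1 (0.042), and Zic2 without DGCR8 4OHT replicate 1 (0.037). At 48 h the Pax6 call was lost without DGCR8 4OHT replicate 2 (0.062), Drosha untreated replicate 2 (0.058) or Drosha 4OHT replicate 2 (0.053).

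The effect in the DGCR8 line minus the effect in the Drosha line at 96 h was called for Zic2 alone of the 8 genes (1.98 ± 0.26, adjusted p = 0.00495), against 0.181% of all genes. That call was lost without DGCR8 untreated replicate 2 (adjusted p = 0.052). Nes differed by 1.34 ± 0.39 (adjusted p = 0.187), a difference called by DESeq2 (adjusted p = 0.049) and without the filter on low counts (1.7e-05). Without DGCR8 4OHT replicate 1, Sox1, Zic5, Nes and Tubb3 were called as well as Zic2, at adjusted p of 0.031, 0.046, 0.0061 and 0.021 for those 4. Map2 differed by 0.13 ± 0.26 and Pax6 by 0.05 ± 0.28, neither of them called. At 24 and 48 h no difference between the lines was called for these genes by edgeR or DESeq2, where 0.00602% of all genes were called. At each time 2 members had an unadjusted p below 0.05. Of the 16606 genes, 585 did at 24 h and 857 at 48 h.

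The untreated lines differed before any treatment. In untreated DGCR8 cells over untreated Drosha cells, Sox1 was higher (log2 0.33 ± 0.09, adjusted p = 0.00747) and Nes (-1.91 ± 0.14, adjusted p = 5.91e-09), Zic2 (-1.38 ± 0.10, adjusted p = 2.21e-09), Sox3 (-1.19 ± 0.38, adjusted p = 0.0147), Tubb3 (-0.37 ± 0.08, adjusted p = 0.000533) and Map2 (-0.28 ± 0.10, adjusted p = 0.0218) were lower, where 48.7% of all genes were called. Nes had 20.3 to 46.5 CPM in untreated DGCR8 cells and 104 to 131 CPM in untreated Drosha cells, without overlap. How many of all genes separate in this way was not counted. The Map2 call was lost without the filter on low counts (0.055) and without DGCR8 replicate 1 at 48 h (0.054), DGCR8 replicate 2 at 96 h (0.058), Drosha replicate 2 at 24 h (0.068) or Drosha replicate 1 at 48 h (0.058), and the Sox3 call without Drosha replicate 2 at 24 h (0.053). Fibroblast markers summed to 6.84 to 9.34 CPM in untreated DGCR8 cells and 19.4 to 55.3 CPM in untreated Drosha cells, and 7 of 8 mesoderm genes tested were lower in untreated DGCR8 cells. Line, set of libraries and these markers cannot be told apart in this comparison.

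In the Mettl3 KO lines, Sox1 was the one gene of the 8 that fell. At 37 °C it had 3.69, 3.14, 3.64 and 1.73 CPM in KO lines 1d1, 3xU, 1d2 and 2c4d, against 13.4 and 18.6 CPM in parental 1 and 2 (log2 -2.40 ± 0.40, adjusted p = 0.0254), where 0.902% of the 15635 genes tested were called and 0.486% were called lower. At 42 °C it had 5.64, 4.15, 4.63 and 1.64 CPM in the same KO lines, against 11.8 and 14.4 CPM in parental cells (log2 -1.71 ± 0.40, adjusted p = 0.0726). The 8 KO libraries stood below the 4 parental libraries at either temperature, but how many of all genes separate in this way was not counted. At 42 °C no member was called by edgeR (0.64% of all genes), whereas DESeq2 called Sox1 (adjusted p = 0.0051). By edgeR, 2 members and 2520 of the 15635 genes had an unadjusted p below 0.05.

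The call for Sox1 at 37 °C rests on few libraries. It was lost in a fit of the 37 °C libraries alone (adjusted p = 0.068), without parental 1 (0.16) or parental 2 (0.24), and without KO line 3xU (0.063), 1d2 (0.051) or 2c4d (0.053). With the temperatures summed per line, so that each line counted once, the difference was -2.03 ± 0.37 with an unadjusted p of 0.000454 and an adjusted p of 0.102, and no member was called where 0.0121% of 16466 genes were.

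The other 7 genes were higher in the fit at 37 °C and none was called, with a median over the 8 of 0.83 against 0.01 over all genes. Zic2 had 46.0, 60.6 and 49.4 CPM in KO lines 1d1, 3xU and 2c4d but 11.6 CPM in KO line 1d2, against 15.1 and 11.9 CPM in parental cells (log2 1.63 ± 0.66, adjusted p = 0.248). Zic5 had 42.0, 59.0, 41.6 and 18.4 CPM in KO lines 1d1, 3xU, 2c4d and 1d2, against 27.4 and 19.0 CPM in parental cells, so that line 1d2 again stood with the parental samples. Pax6 had 26.7, 15.2, 35.6 and 5.89 CPM in the same order of KO lines, against 10.3 and 9.11 CPM. For all 3 genes, KO lines stood on both sides of the parental values.

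None of the 19 progenitor genes, 20 neuronal genes and 15 inhibitors tested was called between KO and parental cells at 37 °C by edgeR. There 0.902% of all genes were called and 0.486% were called lower. Of 8 endoderm genes 4 were lower in KO lines (Gata4, Gata6, Cubn and Sox7), and the 10 listed summed to 51.4 to 186 CPM in KO lines against 205 to 331 CPM in parental cells, with Afp and Ttr at 0 in a library of each. The 12 stem cell markers summed to 3013 to 4744 CPM in KO lines and 5052 to 5064 CPM in parental cells. All 5 trophoblast genes tested and 6 of 7 epiblast genes were higher in KO lines, none of them called. Their part in the level of Sox1 was not tested.

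**Figure D3:**
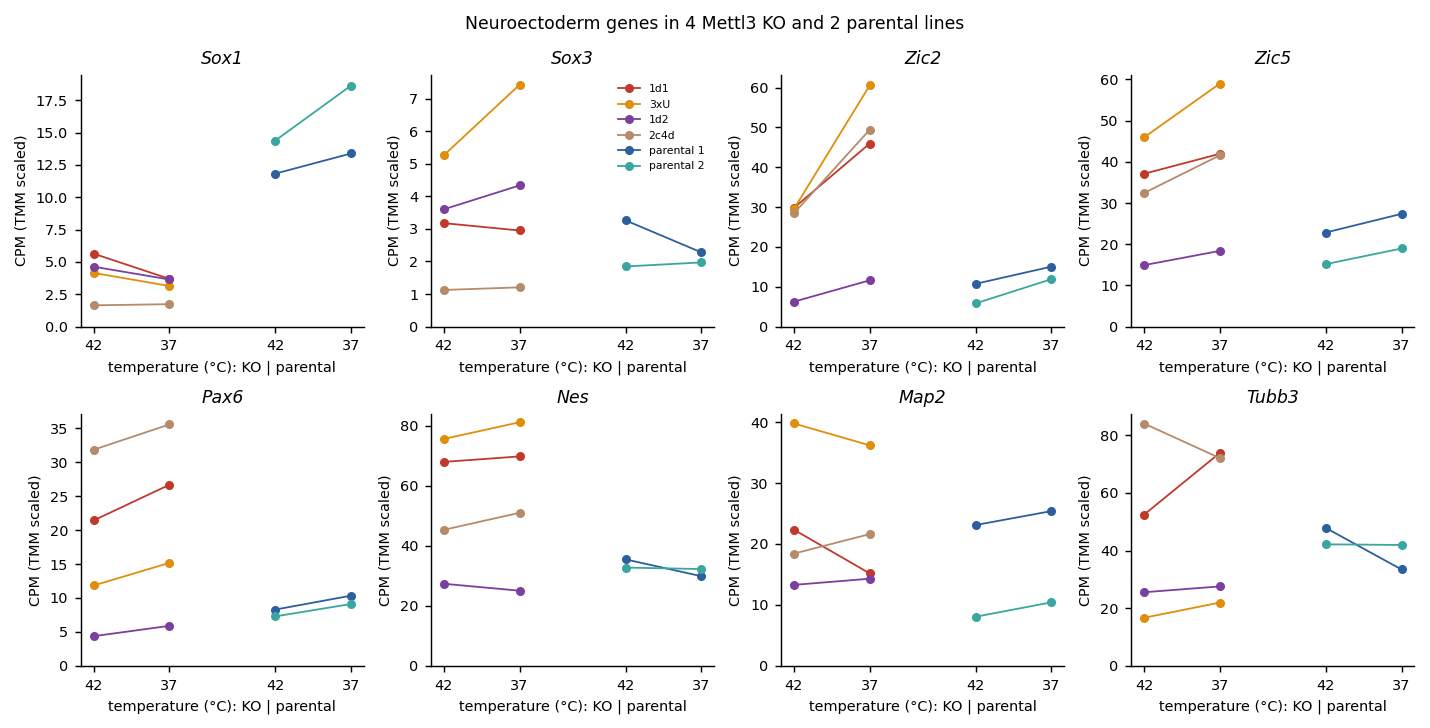
RNA level of each gene in TMM-scaled CPM on a linear axis from 0, at 42 °C and 37 °C, with 1 line per cell line joining its libraries; the 4 Mettl3 KO lines are on the left of each panel and the parental samples on the right. Sox1 is below 6 CPM in the KO lines and above 11 CPM in parental cells, and Zic2, Zic5 and Pax6 slope the same way in all 6 lines.

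After 1 h at 42 °C, Zic2, Zic5 and Pax6 were lower in each of the 6 lines. How many of all genes were lower in all 6 was not counted. Zic2 had 29.8, 29.6, 6.26 and 28.5 CPM at 42 °C in KO lines 1d1, 3xU, 1d2 and 2c4d, against 46.0, 60.6, 11.6 and 49.4 CPM at 37 °C. It had 10.7 and 5.83 CPM at 42 °C in parental 1 and 2, against 15.1 and 11.9 CPM at 37 °C. Levels at the 2 temperatures overlapped between lines, but the log2 ratio within a line ran from -1.04 to -0.49 without exception.

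The ratio within a line was -0.36 to -0.18 for Zic5 and -0.43 to -0.16 for Pax6. Sox1, Nes and Tubb3 were lower at 42 °C in 3 of the 6 lines, and Sox3 and Map2 in 4. In the fits without the line as a block, none of the 8 genes was called by edgeR or DESeq2. This held in parental cells (0.0192% of all genes), in KO lines (0.185%) and for the difference of the heat effects (0%). None had an unadjusted p below 0.05, where 425, 788 and 208 of the 15635 genes did, in the same order. With the line as a block in the KO lines, Zic2 was called there (-0.83 ± 0.11, adjusted p = 0.00181), where 6.77% of all genes were.

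A fit of all 12 libraries with the line as a block, chosen after these values were seen, called Zic2 (-0.81 ± 0.09, adjusted p = 0.00039), Zic5 (-0.30 ± 0.07, adjusted p = 0.016) and Pax6 (-0.30 ± 0.08, adjusted p = 0.034), where 10.8% of all genes were called and 5.55% were called lower. Zic2 was called whichever line was left out. Pax6 was not called when any 1 of the 6 lines was left out, at adjusted p of 0.0574 to 0.109, and Zic5 not without 1d2, 2c4d, 3xU or parental 2, at 0.052 to 0.0687. With genotype in place of line none was called (Zic2 -0.80, adjusted p = 0.717).

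In the same fit, where 10.8% of all genes were called, 1 of 19 progenitor genes rose (Sox11, 0.40) and 1 fell (Sox2, -0.52). Of 20 neuronal genes none was called. Of 15 inhibitors 5 were called: Id1 (0.55) and Id2 (0.49), targets of BMP signalling, rose and Smad6 (-0.90), Smad7 (-0.76) and Bmp4 (-0.34) fell. Foxd3, a factor of neural crest and stem cells, fell by 1.54 ± 0.16 (adjusted p = 0.000212), and 5 of 12 stem cell markers fell, among them Fgf4 (-0.87) and Nanog (-0.50).

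In ChIP, METTL3 precipitates held less chromatin of 6 of the 8 genes than input and more of 1. Reads were summed over the windows that overlap a gene and tested over 29616 genes in 4 precipitates and 2 inputs of METTL3 clones 1 and 2. Of all genes 47.2% were called in either direction, 27.8% lower and 19.4% higher, so that a called gene is common here. The median log2 ratio of the 8 genes was -0.58, against 0.03 over all genes. Inputs had 14.6 and 15.4 CPM per window at Sox1 and 11.1 and 12.1 at Tubb3, where the genome's median window had 1.30 and 1.31. Precipitates had 6.08 to 12.5 CPM per window at Sox1 and 6.08 to 7.35 at Tubb3, where the median window had 1.60 to 1.73. At Sox3 they had 1.36 to 2.97 CPM. A ratio below 0 thus need not mean few reads in the precipitate.

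Sox3 had the lowest ratio, with 1.36, 1.60, 2.97 and 1.68 CPM in precipitates against 6.06 and 6.92 CPM in inputs (log2 -1.79 ± 0.20, adjusted p = 2.44e-07). Sox1 had 6.08, 7.79, 12.5 and 8.33 CPM in precipitates, against 14.6 and 15.4 CPM in inputs (-0.82 ± 0.16, adjusted p = 0.0002). Tubb3 (-0.77 ± 0.10, adjusted p = 1.13e-06), Pax6 (-0.68 ± 0.09, adjusted p = 1.87e-06), Zic2 (-0.49 ± 0.13, adjusted p = 0.00417) and Nes (-0.41 ± 0.11, adjusted p = 0.00381) were also lower. Zic5 did not pass (-0.20 ± 0.14, adjusted p = 0.257). The precipitates of both clones stood below both inputs for these 6 genes, but how many of all genes separate in this way was not counted. Without the input of clone 1, Sox1 (adjusted p = 0.068), Zic2 (0.34) and Nes (0.12) were not called. Zic5 was called without precipitate 1 of clone 2 (-0.33, adjusted p = 0.035) and over its start-site windows, the 5 kb window with the start and its 2 neighbours (-0.66, 2.99e-06), whereas Nes was not called at its start-site windows (-0.13, 0.442).

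Map2, the longest of the genes with 54 windows over 267382 bases, was the one with more reads in precipitates. It had 103, 89.8, 102 and 94.7 CPM in precipitates, against 69.7 and 73.1 CPM in inputs (log2 0.45 ± 0.07, adjusted p = 1.93e-05). Over the 3 windows around its start site, of which 2 lie in the gene, the direction turned, with 6.58, 6.20, 7.10 and 6.65 CPM in precipitates against 8.93 and 9.77 CPM in inputs (log2 -0.49, adjusted p = 0.000433). The other 52 windows of the gene had a mean of 1.90, 1.66, 1.88 and 1.73 CPM in precipitates, against 1.22 and 1.27 CPM in inputs. The median window of the whole genome was also higher in these precipitates, at 1.60 to 1.73 CPM against 1.30 and 1.31 CPM in inputs.

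The related lists had more lower than higher calls, as did all genes tested, with 27.8% lower and 19.4% higher. Of 32 progenitor genes 22 were lower and 5 higher in METTL3 precipitates, of 26 neuronal genes 12 were lower and 5 higher, and of 15 inhibitors 11 were lower and 2 higher.

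**Figure D4:**
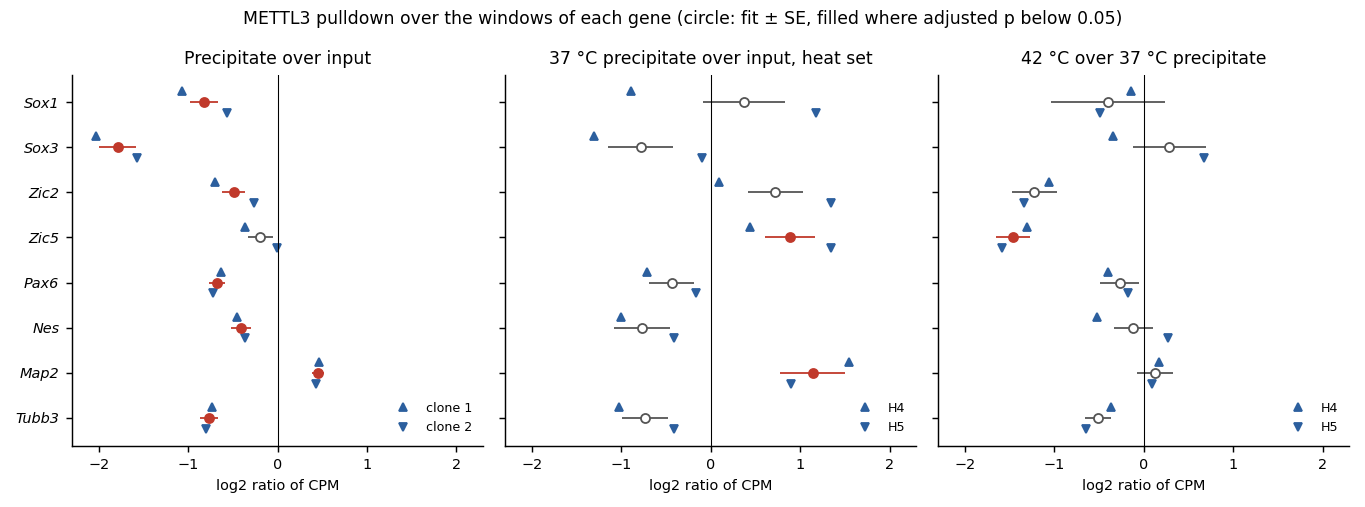
Log2 ratio of CPM summed over the 5 kb windows of each gene: METTL3 precipitate over input in clones 1 and 2, the 37 °C precipitate over input in the heat set, and the 42 °C over the 37 °C precipitate. Circles are fitted values ± SE, filled where the adjusted p is below 0.05, and triangles the ratios within a clone or sample; Map2 lies right of 0 in both comparisons with input, and Zic2 and Zic5 lie left of 0 at 42 °C in H4 and H5.

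With heat, the fitted METTL3 signal changed by over 1 on the log2 scale at Zic5 and Zic2 and by less at the other 6 genes. Zic5 had 10.3 and 11.4 CPM in the 42 °C precipitates of H4 and H5, against 25.5 and 34.2 CPM at 37 °C, and was the one member called (log2 -1.46 ± 0.19, adjusted p = 0.0386), where 1.42% of 30023 genes were called and 1.37% were called lower. Zic2 had 8.65 and 11.0 CPM at 42 °C, against 18.0 and 28.0 CPM at 37 °C (-1.22 ± 0.25, adjusted p = 0.0816). The 42 °C values stood below both 37 °C values for each gene, but how many of all genes separate in this way was not counted. Tubb3 had -0.51 ± 0.15 (adjusted p = 0.156), and the other 5 genes lay between -0.40 and 0.29 without a call.

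The Zic5 call was lost with TMM scaling (adjusted p = 0.09), at start-site windows (0.058), and without the 37 °C precipitate of H4 (0.092) or H5 (0.14), and without the 42 °C precipitate of H5 Zic2 was called as well (adjusted p = 0.028). With the sample, H4 or H5, as a block, Zic2 (-1.20, adjusted p = 6.61e-15) and Tubb3 (-0.51, adjusted p = 0.000673) were called beside Zic5, where 25.1% of all genes were. There was no input at 42 °C. In the heat set the 37 °C precipitates stood above their inputs at both genes, with Zic5 at 25.5 and 34.2 CPM against 18.8 and 13.5 CPM in inputs (0.89 ± 0.28, adjusted p = 0.0372), and Zic2 at 18.0 and 28.0 CPM against 16.8 and 11.0 CPM (0.72 ± 0.31, adjusted p = 0.096). In the set of clones 1 and 2, the precipitates stood below their inputs at Zic2 instead. Set side by side per window of Zic2, precipitates of clones 1 and 2 had 4.41 to 6.52 CPM, against 4.33 and 5.52 CPM at 42 °C and 8.99 and 14.0 CPM at 37 °C in the heat set. The sets were sequenced and scaled apart, and the cause of the gap between them was not tested.

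The lower signal at 42 °C ran across the neighbourhood. In windows centred 17.9 kb before to 7.1 kb after the Zic2 start, each window had fewer CPM at 42 °C than at 37 °C in H4 and in H5. At the window centred 2.1 kb after the start, H4 had 4.62 CPM at 42 °C against 10.8 CPM at 37 °C, and H5 had 6.28 CPM against 16.1 CPM.

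**Figure D5:**
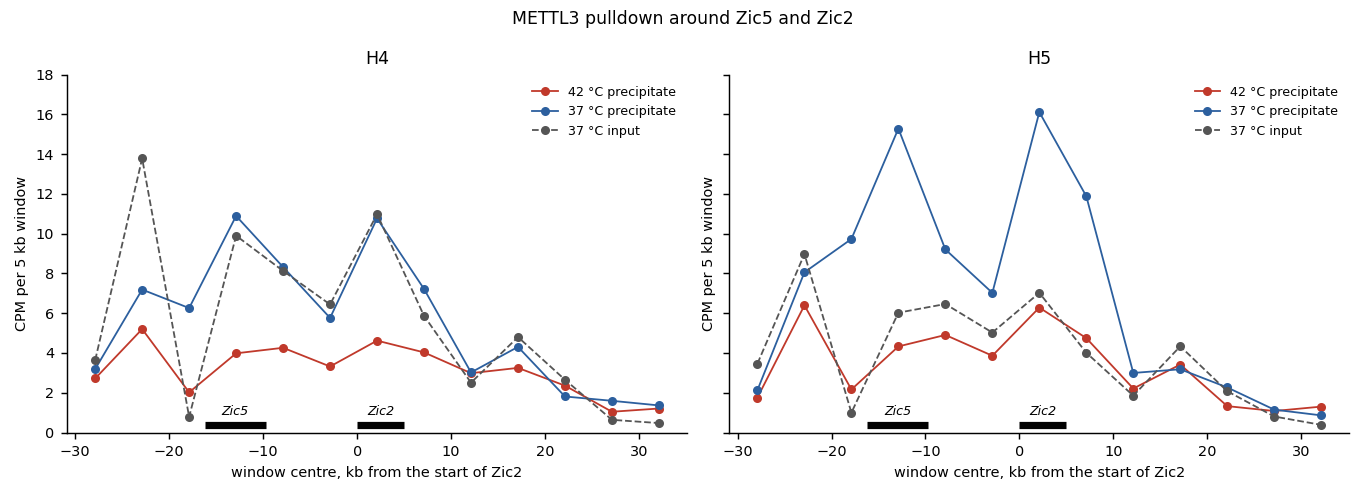
METTL3 signal in CPM per 5 kb window around Zic5 and Zic2 in samples H4 and H5, by the distance of the window's centre in kb from the start of Zic2; red is the 42 °C precipitate, blue the 37 °C precipitate and the dashed grey line the 37 °C input, and black bars mark the genes. Red runs below blue from 17.9 kb before to 7.1 kb after the Zic2 start, and close to the input line in H5.

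Of the other members at 37 °C in the heat set, Map2 was called higher in METTL3 precipitates than in inputs, with 65.7 and 90.2 CPM against 22.4 and 48.3 CPM (1.14 ± 0.36, adjusted p = 0.0397), where 32.4% of 29890 genes were called. Sox1 had 6.04 CPM in the H4 precipitate against 11.2 CPM in its input and 20.0 CPM in the H5 precipitate against 8.85 CPM, opposite directions in the 2 samples. The Zic5 call of this comparison was lost without the precipitate of H4 (0.0866) or H5 (0.354) or the input of H5 (0.0582), and at start-site windows (0.431). The Map2 call was lost without the precipitate of H5 (0.221) or the input of H4 (0.0729), with TMM (0.0573) and at start-site windows (0.19). Zic2 was called without the input of H4 (0.0286), and Sox3, Nes and Tubb3 were called lower without the input of H5 (0.00643, 0.00312 and 0.00699). With the sample as a block, Zic2 was called higher (adjusted p = 0.00401) and Sox3 (0.0292), Nes (0.00353) and Tubb3 (0.0024) lower, beside Zic5 and Map2, where 52% of all genes were called.

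The remaining ChIP comparisons had 1 library on each side, so they give ratios with counting intervals and no test. The intervals cover counting error only, without any spread between samples. With formaldehyde alone, DGCR8 over its input had a log2 ratio of 0.68 at Map2 (95% interval 0.61 to 0.76), and of -1.13 at Tubb3, -1.03 at Sox1 and -0.65 at Sox3, which with Map2 were the 4 members past 1.5-fold, where 21.7% of all genes were. With DSG, 6 members were past 1.5-fold (40.9% of all genes), Map2 above at 0.84 and Sox1, Sox3, Tubb3, Nes and Pax6 below.

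The Drosha precipitate had 3 reads over Sox3 against 72 in parental input (log2 -3.31, interval -5.99 to -2.08). Zic2 (-0.93) and Sox1 (-0.88) were lower and Map2 (0.65) higher there, where 44.1% of all genes were past 1.5-fold. Dicer departed least from parental input, with Zic2 the one member past 1.5-fold (-0.76, interval -0.93 to -0.59) against 3.3% of all genes.

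DGCR8 precipitates from Mettl3 KO cells had no member past 1.5-fold against wild-type precipitates (6.31% of all genes), and Zic2 was nearest at -0.49 (interval -0.83 to -0.16). Against input, the wild-type precipitate had Sox3 (-0.96) and Nes (-0.75) past 1.5-fold, where 19.7% of all genes were. In the heat set at 37 °C, 6 members were past 1.5-fold in DGCR8 over input (53.7% of all genes), with Zic5 (0.66) and Map2 (0.68) above and Zic2, Pax6, Nes and Tubb3 below.

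At 42 °C over 37 °C, DGCR8 had Zic5 at 11.5 CPM against 25.2 CPM (log2 -1.13, interval -1.29 to -0.97) and Sox1 at 4.75 CPM against 8.84 CPM (-0.89), where 40.9% of all genes were past 1.5-fold. Zic2 had 8.45 CPM against 6.92 CPM (0.29, interval 0.02 to 0.56). Zic5 thus had fewer CPM at 42 °C in the precipitates of both proteins, and Zic2 in those of METTL3 but not of DGCR8. The genome's median window was higher at 42 °C here too, with 1.77 CPM against 1.33 CPM for DGCR8. Its part in these values was not tested. The DGCR8 values rest on 909 reads of Zic5 at 42 °C and 513 at 37 °C, in libraries of 79.3 and 20.4 in units of 1e6 reads.

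Over all comparisons with input, Map2 lay above 0 in the METTL3, DGCR8, Drosha and Dicer precipitates, although its Dicer ratio of 0.06 had an interval that included 0. The genome's median window was also higher in each of these precipitates than in its input, so this direction is not particular to Map2. It had 1.58 against 1.11 CPM for DGCR8 with DSG, 1.56 against 1.17 CPM for Drosha and 1.21 against 1.17 CPM for Dicer. Over the 3 start-site windows alone, Map2 was below 0 for METTL3 of clones 1 and 2 (-0.49), Drosha (-1.10), Dicer (-0.37), DGCR8 at 37 °C in the heat set (-0.33) and wild-type DGCR8 beside the KO (-0.07), and above 0 for DGCR8 with formaldehyde (0.20), DGCR8 with DSG (0.51) and METTL3 at 37 °C in the heat set (0.39).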

How the data were processed

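The authors deposited raw counts, of RNA reads per gene and of ChIP reads in each 5 kb window. The submitters' processing notes name Bowtie and mm10 for the alignment. RNA reads came from ribosome-depleted total RNA made with ScriptSeq v2, per the labels' protocols. Bowtie's version and settings, the strand used in counting and the annotation are not given in the sources used here. Reads of Sox1 and Pax6 therefore cannot be told apart from those of the overlapping genes Sox1ot (at most 9 reads), Pax6os1 (at most 1) and Elp4. The same holds for Map2, whose span overlaps 4 genes (Gm51629, Gm24729, Gm18034 and Gm25411). Titles were followed where they conflict with source names, and 1 DGCR8 precipitate column was assigned by elimination.

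Counts were fitted with edgeR 4.0.16 in R 4.3.3 (TMM, filterByExpr, quasi-likelihood F test, Benjamini-Hochberg at 0.05), with 1 fit for each floxed line, 1 for both and 1 for the heat set. The standard error is the absolute fold change divided by the square root of F. ChIP counts on chromosomes 1 to 19 and X were summed over windows per gene and scaled to library totals. Single-library ratios had at least 50 reads in the pair, a pseudocount of 1 and a 95% interval for counting error alone. Alternatives were RLE factors, no filter, DESeq2 1.42.0, the compared groups alone, blocks, start-site windows and each library left out. The scripts were tested on simulated data.

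Replicate numbers of the floxed lines were not taken as pairs, since their correlations of deviations differed in sign. Samples of the heat set were paired by cell line, per their labels, with correlations of deviations of 0.684 to 0.875, and KO against parental cells cannot be blocked by line. The members were given by name, and the related lists, markers and rules for named genes were chosen with earlier results of these data known. Named were all 8 members, members of the lists that were called, and for each gene the closest matches by correlation.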

Additional observations from a re-analysis of the deposited data

Results flagged for a closer look

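The level of Zic2 in Mettl3 KO line 1d2 at 42 °C, 6.26 CPM, stood apart from the other 3 KO lines at that temperature, which had 28.5 to 29.8 CPM, by more than the critical gap for 4 samples. Chance alone would mark about 1 in 20 groups, and 16 groups of 4 were examined. At 37 °C the same line was lowest too, with 11.6 CPM against 46.0 to 60.6 CPM in the other KO lines.

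The response of Zic2 to 4OHT differed between the floxed lines at 96 h by 1.98 on the log2 scale, with 14.4 and 19.5 CPM against 7.29 and 7.12 CPM in the DGCR8 line and 12.3 CPM against 22.3 and 18.9 CPM in the Drosha line. In the Drosha line, the response at 96 h differed from that at 24 h by 0.91 for Map2 and by -0.72 for Nes. Each of these 3 rests on a test of the difference and on the 1 treated Drosha library at 96 h.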

How the results depend on the processing

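Counts of called members changed as follows, the cause not being tested. For 4OHT in the DGCR8 line at 48 h (1 called) RLE factors gave 0, no filter 2 and the compared groups alone 0, and at 96 h (5 called) the compared groups alone gave 0. For the Drosha line at 48 h (2 called) RLE factors gave 1, DESeq2 0 and the compared groups alone 0. The line difference at 96 h (1 called) gave 2 without the filter and 2 with DESeq2. Mettl3 KO over parental gave 0 at 37 °C with the compared groups alone (1 called), and 1 at 42 °C without the filter and with DESeq2 (0 called). The line as a replicate block gave 1 for KO lines at 42 over 37 °C (0 called, Zic2 being added), and no replicate block gave 0 for the 6 lines (3 called).

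For METTL3 at 42 over 37 °C (1 called), TMM gave 0, start-site windows 0 and a replicate block of H4 and H5 gave 3 (Zic2 and Tubb3 added), with 2 pairs correlating at 0.575. For METTL3 at 37 °C over input (2 called), TMM gave 1, start-site windows 1 (Pax6, lower in precipitates at -1.01) and that block 6 (Sox3, Zic2, Nes and Tubb3 added), with a correlation of 0.445. Start-site windows, which could be placed for 6 of the 8 genes and not for Sox3 and Zic2, gave 2 for DGCR8 with formaldehyde (4), 0 for Dicer (1), 2 for Drosha (4), 1 for wild-type DGCR8 (2), 3 for DGCR8 at 37 °C (6) and 1 for DGCR8 at 42 over 37 °C (2), and Map2 turned below 0 with them for METTL3 (-0.49), Drosha (-1.10), DGCR8 at 37 °C (-0.33), Dicer (-0.37) and wild-type DGCR8 (-0.07).

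Leaving out 1 library gave 0 to 0 members for the DGCR8 line at 48 h, 2 to 6 at 96 h and 0 to 1 for 96 minus 24 h. It gave 0 to 2 for the Drosha line at 48 h, 3 to 3 at 96 h, 0 to 2 for 96 minus 24 h and 0 to 2 for untreated 96 over 24 h. It gave 3 to 4 and 3 to 6 for both lines averaged at 48 and 96 h, 0 to 5 for their difference at 96 h and 4 to 6 for the untreated lines. It gave 0 to 1 for KO over parental at 37 °C, 1 to 2 for the 6 lines, 4 to 8 for METTL3 over input, 0 to 4 for METTL3 at 37 °C over input and 0 to 2 for METTL3 at 42 over 37 °C. The sole treated Drosha library at 96 h could not be left out.

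Replicate numbers of the floxed lines correlated from -0.668 to 0.548. In the DGCR8 line they correlated at 0.548 and 0.515 at 48 and 96 h, so they may pair samples there. A replicate block in the floxed lines moved no count of members by over 1.5 times. Of 974 alternative member fold changes other than left-out libraries, 923 kept direction and call. Depth limits Sox3 most, at 1 to 26 reads per floxed library.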
